A study of Mus musculus with 12 samples.

Results

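The genes of one signalling route were examined in mouse hearts under pressure overload: the myocyte enhancer factor 2 (MEF2) transcription factors Mef2a, Mef2c and Mef2d, the class IIa histone deacetylases (HDACs) Hdac4, Hdac5, Hdac7 and Hdac9, and the calcium/calmodulin-dependent protein kinase II (CaMKII) subunits Camk2a, Camk2b and Camk2d. They were taken by gene symbol alone, and these 10 genes are 10 of the 27179 rows of each deposited table. Hearts of 12-week-old C57Bl/6J mice were collected 1 week after transverse aortic constriction (TAC), an operation that narrows the aorta and raises the load on the left ventricle, or after a sham operation. The mice had been put on a chow without fat (0 kcal% fat) or on a high-fat chow (60 kcal% fat) 4 days before surgery. The groups were high-fat TAC (n = 3), high-fat sham (n = 2), fat-free TAC (n = 3) and fat-free sham (n = 3). A further high-fat sham library was not analysed here. All groups shared the strain and age, and none carried an engineered allele. Whether the libraries are from different animals is not given in the labels, so p-values measure the spread between these libraries.

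MEF2 proteins bind a short AT-rich sequence and drive muscle genes. Class IIa HDACs sit on MEF2 and hold those genes down. When calcium loads calmodulin, CaMKII and protein kinase D phosphorylate the class IIa HDACs, 14-3-3 proteins carry them out of the nucleus, and MEF2 is released; in the loaded heart this route is known for its part in hypertrophic growth. It is controlled largely by phosphorylation, which transcript levels do not show.

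The promoters of Hdac5 and Camk2b, both called lower in TAC hearts on average, are shown first. Promoters of 9 of the 10 genes were examined, and that of Camk2a was not. Among these 9 genes, only Hdac5 carried a MEF2 site in any of its windows. Camk2b was the only CaMKII gene among them with a called change. Windows were the 250 bases before a RefSeq start site on GRCm38.p6, and the 9 genes have 15 of them. The sequences below run 5′ to 3′ and end just before the start site. Capitals mark a MEF2 site, GATAA, an E-box (CANNTG) or GGGCGG on either strand.
Hdac5, chr11:102230173-102230422, minus strand: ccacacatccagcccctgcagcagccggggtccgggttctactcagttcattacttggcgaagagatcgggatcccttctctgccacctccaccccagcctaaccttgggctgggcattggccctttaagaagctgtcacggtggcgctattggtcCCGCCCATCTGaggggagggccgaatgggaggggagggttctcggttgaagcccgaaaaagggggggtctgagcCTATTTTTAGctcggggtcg
Camk2b, chr11:6065749-6065998, minus strand: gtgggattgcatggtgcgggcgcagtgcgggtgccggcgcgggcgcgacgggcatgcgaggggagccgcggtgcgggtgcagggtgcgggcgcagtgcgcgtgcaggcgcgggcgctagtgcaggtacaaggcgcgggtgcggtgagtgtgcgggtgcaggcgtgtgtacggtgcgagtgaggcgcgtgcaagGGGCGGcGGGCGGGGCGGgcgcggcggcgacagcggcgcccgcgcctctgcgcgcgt
In Hdac5 the MEF2 site began 20 bases before the start site, and an E-box and GGGCGG on the opposite strand, which overlap by 1 base, began 89 and 94 bases before it. In Camk2b, GGGCGG occurred 3 times, beginning 57, 50 and 45 bases before the start site with an overlap of 1 base between the last of them, and no MEF2 site, GATAA or E-box was present. Of all 32851 windows, 2.92% hold a MEF2 site, 66.2% an E-box, 22.6% GATAA and 32.7% GGGCGG. The windows contain 60.8% G or C bases in Hdac5 and 78.4% in Camk2b, against a median of 52.4% over all windows. A match of letters does not show that a factor binds there.

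The deposited values are counts per gene that were normalized within each diet, called normalized counts here, and each library summed to between 25906622 and 39699027 of them. TAC was compared with sham within each diet, and the average of both TAC effects and their difference were tested as well, with limma on log2(normalized count + 1). A gene was called at a Benjamini-Hochberg adjusted p under 0.1 over all genes tested, and each fold change is on that log2 scale. As a check of the labels, all 5 stress genes examined were called higher after TAC on each diet. Nppa, the gene of atrial natriuretic peptide, averaged a log2 fold change of 4.73 and Acta1, the skeletal muscle actin gene, 3.62. Nppa was also on the list of atrial markers, and its log2 fold change was 7.17 on the high-fat and 2.28 on the fat-free diet. It stood at 402581, 33860 and 106638 in high-fat TAC hearts, against 505 and 1220 in high-fat sham hearts. The part of atrial tissue in these values was not tested. The libraries differed in an atrial marker: Myl7, the atrial myosin light chain gene, stood above 1000 in 4 libraries, with 14839 in high-fat TAC replicate 1, 1758 in fat-free TAC replicate 1 and 9915 and 8426 in fat-free sham replicates 1 and 3, against 4 to 274 in the other libraries. The share of mitochondrial counts separated the operations: 18.1% to 25.3% in high-fat TAC and 32.5% to 32.8% in high-fat sham hearts, and 20.8% to 23.6% in fat-free TAC and 26.2% to 28.4% in fat-free sham hearts. High-fat TAC replicate 1 had the lowest share, and the part of this difference in the results was not tested. The summed level of 8 cardiomyocyte markers ran from 806442 to 1235635 in high-fat TAC and from 1580474 to 1672741 in high-fat sham hearts, and from 1046675 to 1342653 in fat-free TAC and from 1370544 to 1449696 in fat-free sham hearts. In bulk tissue, fewer cells of a type and less RNA per cell cannot be told apart.

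The clearest changes lay among the CaMKII subunits. Camk2a and Camk2b, the subunits best known from brain, were lower after TAC on both diets. Camk2d, the main CaMKII subunit of heart muscle, was not called on the scale used. Camk2a stood at 624, 1062 and 765 normalized counts in high-fat TAC hearts, against 1609 and 1476 in high-fat sham hearts. On the fat-free diet it stood at 969, 979 and 1107 in TAC hearts, against 1706, 1429 and 1490 in sham hearts. Every TAC library lay below every sham library of its diet. The log2 fold change was -0.95 ± 0.23 (SE) on the high-fat diet (limma, adjusted p = 0.0543) and -0.60 ± 0.10 on the fat-free diet (adjusted p = 0.0122). The average over both diets was -0.77 ± 0.12 (95% interval -1.05 to -0.50, adjusted p = 0.00145), a change of -41.5%. In muscle the same gene also encodes alphaKAP, an anchoring protein without kinase activity, and counts per gene do not separate it from the kinase.

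Camk2b (chromosome 11 of mm10, 5969642 to 6065748, minus strand, counted over its exons) stood at 240, 281 and 205 normalized counts in high-fat TAC hearts, against 396 and 402 in high-fat sham hearts. On the fat-free diet it stood at 226, 289 and 286 in TAC hearts, against 418, 438 and 398 in sham hearts. Again every TAC library lay below every sham library of its diet, and the sham values lay close together within each diet. The log2 fold change was -0.73 ± 0.17 on the high-fat diet (limma, adjusted p = 0.0516), -0.65 ± 0.13 on the fat-free diet (adjusted p = 0.0198) and -0.69 ± 0.10 on average (95% interval -0.92 to -0.46, adjusted p = 0.00109), a change of -38.1%. Groups without overlap and lower in TAC were found for 33.1% of all genes on the high-fat diet, 17.6% on the fat-free diet and 13.3% on both. In the authors' deposited table the shrunken log2 fold changes were -0.84 (adjusted p = 0.000486) on the high-fat and -0.58 (adjusted p = 9.29e-05) on the fat-free diet for Camk2a, and -0.69 (adjusted p = 0.000625) and -0.61 (adjusted p = 0.00166) for Camk2b. On the high-fat diet both calls of the limma test were lost when TAC replicate 3 was left out. That fit called few genes of any kind, 145 higher and 9 lower, against 2410 and 2109 with all libraries. Both calls were also lost without either sham library, which left 1 sham library. Leaving out single libraries gave high-fat log2 fold changes from -1.16 to -0.773 for Camk2a and from -0.844 to -0.618 for Camk2b. Camk2b also lost its high-fat call under library size scaling (-0.31, limma adjusted p = 0.234). On the fat-free diet, leaving out the 3 libraries rich in Myl7 left 2 TAC libraries and 1 sham library, a fit that called 0 genes in all; its log2 fold changes were -0.46 for Camk2a and -0.61 for Camk2b.

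Camk2d stood at 4797, 5068 and 5773 normalized counts in high-fat TAC hearts, against 5785 and 5495 in high-fat sham hearts. Fat-free TAC hearts had 5071, 5806 and 4805, against 4996, 5316 and 4869 in fat-free sham hearts. The groups overlapped on the fat-free diet and on the high-fat diet, where the highest TAC library fell between both sham libraries. The average log2 fold change was -0.04 (95% interval -0.20 to 0.13, limma adjusted p = 0.715). On the scale used, a fall as large as that of Camk2b lies outside this interval. Library size scaling called Camk2d higher on the high-fat diet (0.30, limma adjusted p = 0.0771) and on average (0.24, adjusted p = 0.0215).

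**Figure D1:**
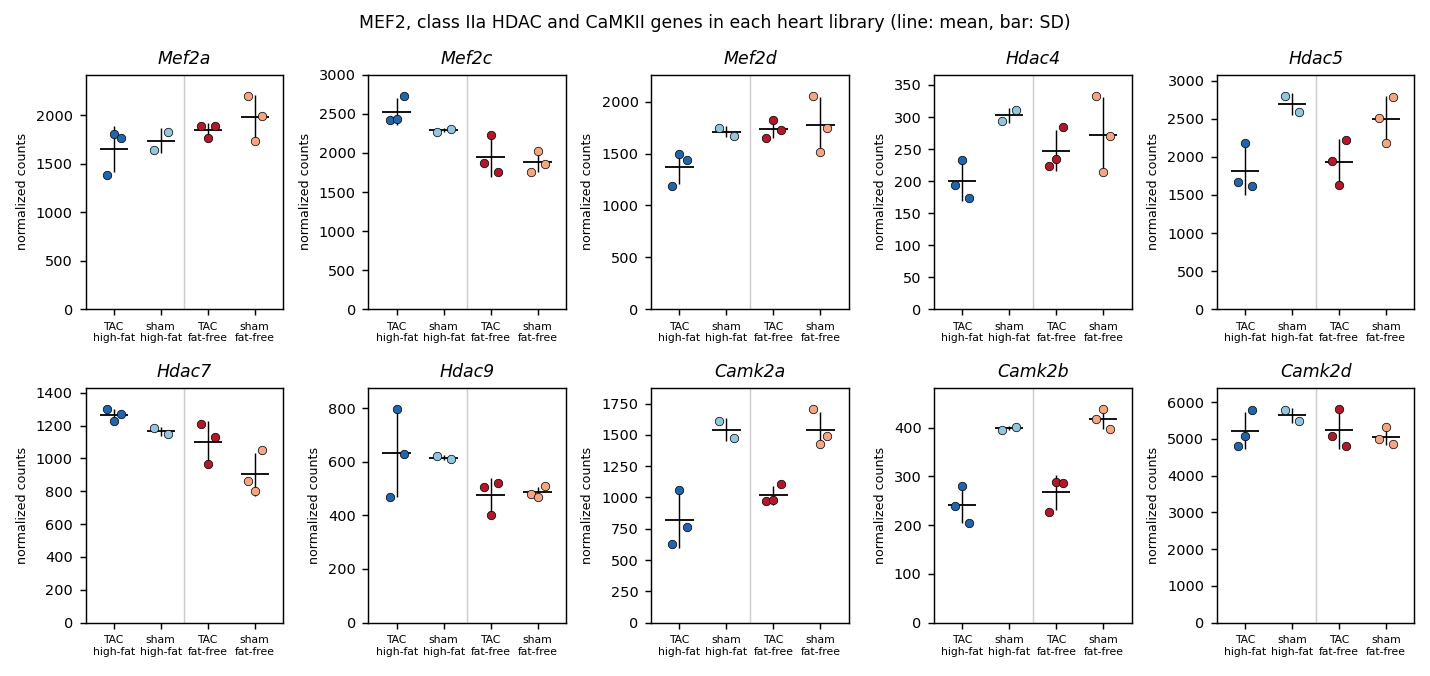
Normalized counts of each of the 10 genes in each of the 11 heart libraries (vertical axes, linear and starting at 0), by operation and diet. Points are libraries, lines are means and bars are SDs; the TAC points of Camk2a and Camk2b lie below the sham points on both diets, whereas those of Camk2d overlap.

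Because these subunits assemble into mixed holoenzymes, their proportions were compared per kilobase of counted exon, a ratio within each library that no scaling factor alters. Camk2d made up 64.2% ± 2.44 (SD) of the summed CaMKII level in high-fat TAC hearts and 58.7% ± 0.681 in high-fat sham hearts, and 63.7% ± 2.01 in fat-free TAC and 57.5% ± 1.79 in fat-free sham hearts. Camk2a made up 8.37% ± 2.16 in high-fat TAC and 13.4% ± 0.484 in high-fat sham hearts, and 10.4% ± 1.32 in fat-free TAC and 14.6% ± 1.44 in fat-free sham hearts. The groups did not overlap in either share on either diet. The shares were not tested. Among all genes, 28.6% had levels without overlap on each diet in the same direction, and no such rate was obtained for shares. Camk2b supplied 3.19% ± 0.593 in high-fat TAC and 4.42% ± 0.156 in high-fat sham hearts, and 3.47% ± 0.420 in fat-free TAC and 5.06% ± 0.169 in fat-free sham hearts. The rest came from Camk2g, the other CaMKII subunit gene of heart, whose share was 24.3% ± 1.68 in high-fat TAC and 23.6% ± 1.01 in high-fat sham hearts, and 22.5% ± 0.408 in fat-free TAC and 22.8% ± 1.60 in fat-free sham hearts. Shares within a family are tied to each other, and the Camk2d level itself was not called on the scale used.

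**Figure D2:**
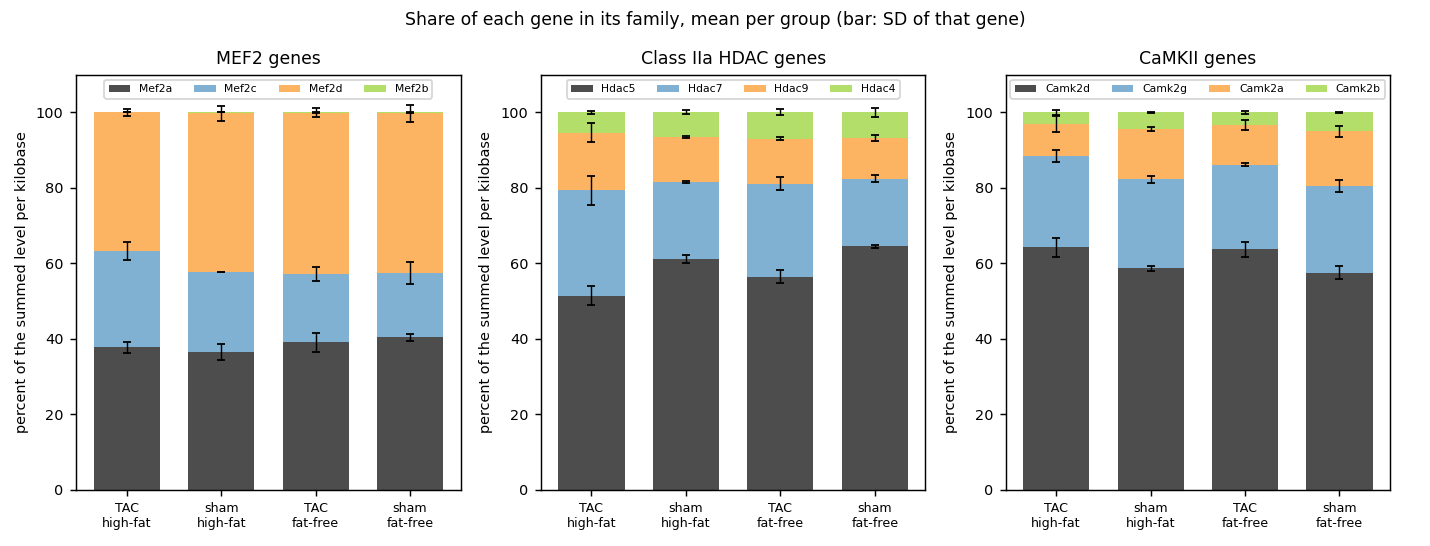
Mean percent of the summed level per kilobase that each gene supplied within the MEF2, class IIa HDAC and CaMKII families (vertical axes), by operation and diet, with bars for the SD of each gene. In TAC hearts Hdac5 filled 51.4% (high-fat) and 56.4% (fat-free) of its family, against 61.2% and 64.5% in sham hearts, and Camk2d filled 64.2% and 63.7%, against 58.7% and 57.5%.

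Among the class IIa HDACs, Hdac5 was lower after TAC, Hdac4 was lower on the high-fat diet, and Hdac7 was slightly higher on average. Hdac5, a repressor of MEF2 whose loss is known to sensitise the mouse heart to pressure overload (chromosome 11, 102195747 to 102230172, minus strand), stood at 1664, 2177 and 1613 normalized counts in high-fat TAC hearts, against 2801 and 2593 in high-fat sham hearts. Fat-free TAC hearts had 1950, 1627 and 2222, against 2504, 2183 and 2788 in fat-free sham hearts. The groups were apart on the high-fat diet, and on the fat-free diet the highest TAC library passed the lowest sham library. The log2 fold change was -0.58 ± 0.15 on the high-fat diet (limma, adjusted p = 0.0627), -0.37 ± 0.14 on the fat-free diet (adjusted p = 0.108, not called) and -0.48 ± 0.11 on average (95% interval -0.72 to -0.23, adjusted p = 0.00766). In the authors' deposited table Hdac5 passed on both diets, at -0.59 (adjusted p = 0.00169) on the high-fat and -0.35 (adjusted p = 0.084) on the fat-free diet. The high-fat call was lost under library size scaling (-0.16, limma adjusted p = 0.383). It was also lost without TAC replicate 3, a fit that called 145 genes higher and 9 lower over all genes. The same held without either sham library, which left 1 high-fat sham library. Leaving out single libraries gave high-fat log2 fold changes from -0.718 to -0.502. The average lost its call without the 4 libraries rich in Myl7, which left 1 fat-free sham library (-0.36, adjusted p = 0.102) and under library size scaling (-0.20, adjusted p = 0.163).

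Hdac4, another MEF2 repressor and a direct CaMKII target, lies on chromosome 1 (91932734 to 92148393, minus strand) and had the lowest level per kilobase in its family. It had 194, 233 and 173 normalized counts in high-fat TAC hearts, against 294 and 311 in high-fat sham hearts, without overlap. Fat-free TAC hearts had 224, 235 and 284, against 333, 214 and 270 in fat-free sham hearts, whose range enclosed all TAC values. The log2 fold change was -0.60 ± 0.17 on the high-fat diet (limma, adjusted p = 0.0676), -0.12 ± 0.19 on the fat-free diet (adjusted p = 0.691) and -0.36 ± 0.13 on average (adjusted p = 0.0487). The authors' deposited table gives -0.37 (adjusted p = 0.24) on the high-fat diet, which is not a call. Without high-fat TAC replicate 3 the high-fat call and the average call were lost. On the high-fat diet that fit called 145 genes higher and 9 lower over all genes. Both calls were also lost without either high-fat sham library, which left 1 library in that group. Leaving out single libraries gave log2 fold changes from -0.72 to -0.506 on the high-fat diet and from -0.444 to -0.285 on average. The average was -0.16 (adjusted p = 0.427) without the 4 libraries rich in Myl7 and -0.08 (adjusted p = 0.647) under library size scaling, which also ended the high-fat call (-0.19, adjusted p = 0.455).

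Hdac7, known for its role in endothelial cells (chromosome 15, 97792664 to 97844502, minus strand), had 1300, 1230 and 1270 normalized counts in high-fat TAC hearts, against 1185 and 1147 in high-fat sham hearts. Fat-free TAC hearts had 1209, 965 and 1129, against 861, 801 and 1051 in fat-free sham hearts. All high-fat TAC libraries exceeded the sham libraries, and the fat-free groups overlapped. Neither diet gave a call (limma log2 fold changes 0.12 and 0.29, adjusted p = 0.348 on the high-fat and 0.18 on the fat-free diet), and the average of 0.20 ± 0.09 did (95% interval 0.01 to 0.39, adjusted p = 0.0803). That call held only without high-fat TAC replicate 2, fat-free TAC replicate 2 or fat-free sham replicate 3 among the settings that left out a library; leaving out any of the other 8 libraries ended it, with adjusted p from 0.118 to 0.194. Of 8 endothelial markers, 2 were called higher and 1 lower on average, with a median log2 fold change of 0.05; their summed level ran from 23907 to 33898 in high-fat TAC and from 28051 to 30727 in high-fat sham hearts, and from 24770 to 29228 in fat-free TAC and from 20019 to 26167 in fat-free sham hearts. Their part in the Hdac7 result was not tested.

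Hdac9, also a MEF2 repressor of the heart, had 470, 796 and 629 normalized counts in high-fat TAC hearts, against 622 and 609 in high-fat sham hearts. Fat-free TAC hearts had 504, 403 and 520, against 478, 468 and 510 in fat-free sham hearts. TAC libraries lay on both sides of the sham libraries on each diet, and the average log2 fold change was -0.02 (95% interval -0.30 to 0.27, limma adjusted p = 0.932). Library size scaling called Hdac9 higher on the high-fat diet (0.42, limma adjusted p = 0.0962) and on average (0.26, adjusted p = 0.0623). The counted exons of Hdac9 on mm10 chromosome 12, from 34371497 to 34528889 on the minus strand, covered 53.3% of the coding bases that GENCODE M21 gives the gene, whose annotation runs from 34047580 to 34917095. The exons towards the 3′ end, which encode the deacetylase domain, were not counted, so the value stands for the counted exons alone. For the other genes the counted exons covered 86.3% to 99.5% of the coding bases.

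Within the family, Hdac5 supplied 51.4% ± 2.54 of the summed level per kilobase in high-fat TAC and 61.2% ± 1.06 in high-fat sham hearts, and 56.4% ± 1.75 in fat-free TAC and 64.5% ± 0.449 in fat-free sham hearts. Hdac7 supplied 27.9% ± 3.90 in high-fat TAC and 20.3% ± 0.287 in high-fat sham hearts, and 24.7% ± 1.82 in fat-free TAC and 17.9% ± 0.919 in fat-free sham hearts. Neither share overlapped between TAC and sham on either diet. The shares were not tested.

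No MEF2 gene was called in these comparisons on the scale used. Mef2a had 1380, 1801 and 1769 normalized counts in high-fat TAC hearts, against 1645 and 1828 in high-fat sham hearts, and 1893, 1767 and 1886 in fat-free TAC hearts, against 2199, 1734 and 1996 in fat-free sham hearts. Mef2c, the member needed for heart development, had 2424, 2436 and 2731 in high-fat TAC hearts, against 2271 and 2313 in high-fat sham hearts, and 1866, 2231 and 1751 in fat-free TAC hearts, against 1762, 2027 and 1863 in fat-free sham hearts. Mef2d, which is known to be required for part of the remodelling response to pressure overload in mice, had 1184, 1493 and 1436 in high-fat TAC hearts, against 1746 and 1671 in high-fat sham hearts, and 1649, 1827 and 1729 in fat-free TAC hearts, against 2056, 1514 and 1750 in fat-free sham hearts. On the high-fat diet all TAC libraries were higher than sham for Mef2c and lower for Mef2d; elsewhere the groups overlapped. On that diet, where sham held only 2 libraries, groups did not overlap for 63.7% of all genes (30.6% higher and 33.1% lower); on the fat-free diet the share was 37.3% (19.7% higher and 17.6% lower). The high-fat log2 fold change was -0.32 for Mef2d (95% interval -0.64 to -0.01, limma adjusted p = 0.121) and 0.14 for Mef2c (-0.10 to 0.38, adjusted p = 0.325). Averages over both diets were -0.09 for Mef2a (-0.29 to 0.11), 0.09 for Mef2c (-0.08 to 0.26) and -0.17 for Mef2d (-0.38 to 0.03). On the high-fat diet Mef2d was called lower by limma without TAC replicate 1 (-0.22, adjusted p = 0.0772) or TAC replicate 2 (-0.39, adjusted p = 0.0831). The replicate block (-0.22, adjusted p = 0.0785) gave the same log2 fold change as leaving out TAC replicate 1, since no analysed high-fat sham library has that number. Mef2d was also called lower in a joint fit of every library (-0.32, adjusted p = 0.0933). On average Mef2d was called lower without fat-free sham replicate 2 (-0.23, adjusted p = 0.0602). Library size scaling called Mef2a (0.34, adjusted p = 0.0591) and Mef2c (0.56, adjusted p = 0.0278) higher on the high-fat diet, and both on average (0.19, adjusted p = 0.0833 for Mef2a and 0.37, adjusted p = 0.00596 for Mef2c).

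Mef2d supplied 36.7% ± 0.970 of the summed MEF2 level per kilobase in high-fat TAC and 42.1% ± 2.02 in high-fat sham hearts, and 42.8% ± 1.17 in fat-free TAC and 42.3% ± 2.25 in fat-free sham hearts. Mef2a supplied 37.7% ± 1.53 in high-fat TAC and 36.5% ± 2.11 in high-fat sham hearts, and 39.1% ± 2.53 in fat-free TAC and 40.4% ± 0.922 in fat-free sham hearts. Mef2c supplied 25.5% ± 2.31 in high-fat TAC and 21.1% ± 0.0837 in high-fat sham hearts, and 18.0% ± 1.83 in fat-free TAC and 17.1% ± 2.92 in fat-free sham hearts. On the high-fat diet the TAC and sham shares of Mef2c and Mef2d did not overlap. The shares were not tested, and the levels of 63.7% of all genes did not overlap on that diet. No such rate was obtained for shares. The remaining MEF2 gene, Mef2b, had 0 to 3 normalized counts in TAC libraries and 4 to 8 in sham libraries and was too low to test.

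Counted together, 4 of the 10 genes were called lower and 0 higher on the high-fat diet, where 31.7% of 14274 genes were called, 16.9% higher and 14.8% lower. On the fat-free diet 2 of the 10 were called lower and 0 higher, where 24.2% of 13995 genes were called, 14.2% higher and 10.0% lower. For the average effect 4 were lower and 1 higher, where 52.1% of 14729 genes were called, 25.9% lower and 26.2% higher. With both directions pooled, the shares of the 10 genes called were near those of all genes. Within each diet all called genes among the 10 were lower, and this balance was not tested. Under library size scaling the balance was 1 lower and 5 higher on the high-fat diet, 2 lower and 1 higher on the fat-free diet and 2 lower and 5 higher on average. On the scale used, their median log2 fold change was -0.22 on the high-fat diet, -0.06 on the fat-free diet and -0.13 on average, against -0.01, -0.02 and -0.01 over all genes. Scaling by library size raised the median of all genes to 0.40, 0.13 and 0.27 in these 3 comparisons. Relative to that median the average was -0.76 for Camk2a, -0.68 for Camk2b, -0.46 for Hdac5, -0.35 for Hdac4 and 0.22 for Hdac7.

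**Figure D3:**
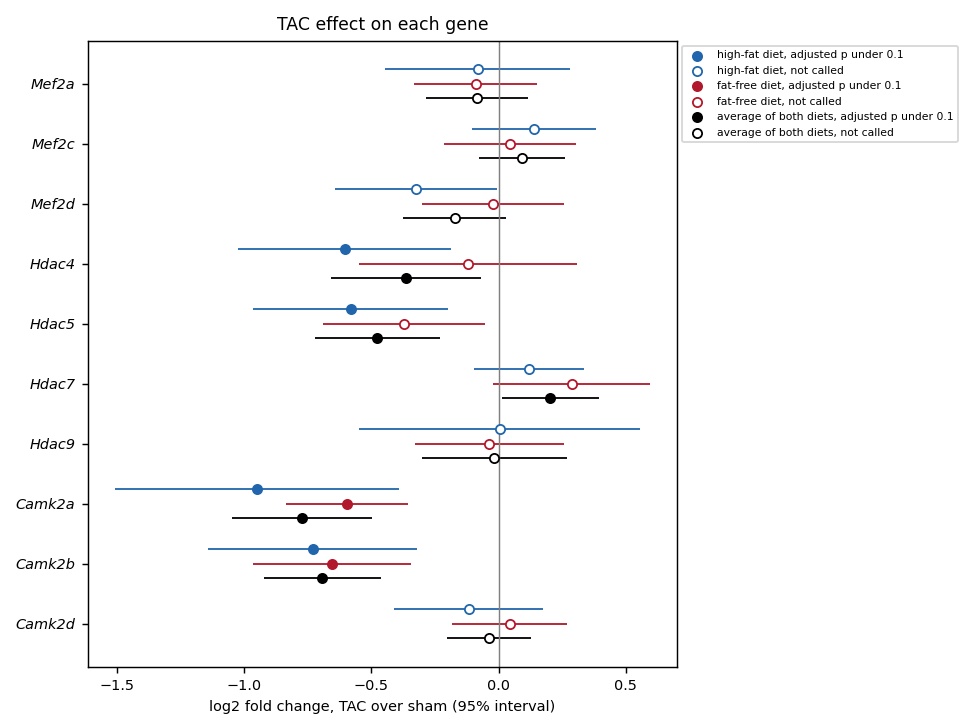
Log2 fold change of TAC over sham for each gene (horizontal axis) with its 95% interval, on the high-fat diet, on the fat-free diet and averaged over both. Filled points have an adjusted p under 0.1; Camk2a and Camk2b are filled in all 3, Hdac4 and Hdac5 on the high-fat diet and on average, and Hdac7 on average alone.

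Whether diet altered the TAC effect was tested directly, as the high-fat minus the fat-free effect. The test called 0% of genes, that is 0 of the 10 and 0 of the 14729 genes, with 679 genes at an unadjusted p under 0.05. The difference was -0.48 for Hdac4 (95% interval -1.07 to 0.11, limma adjusted p = 0.784), -0.35 for Camk2a (-0.90 to 0.20, adjusted p = 0.784), -0.21 for Hdac5 (-0.70 to 0.28, adjusted p = 0.83), -0.17 for Hdac7 (-0.55 to 0.21, adjusted p = 0.825) and -0.08 for Camk2b (-0.54 to 0.38, adjusted p = 0.94). These intervals leave room for effects of either direction, so a call for Hdac4 or Hdac5 on the high-fat diet alone does not show a diet effect. The diets were normalized separately and their levels were not compared.

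The relatives of these genes with other roles moved in both directions. Hdac6, a cytoplasmic tubulin deacetylase, had 815, 569 and 699 normalized counts in high-fat TAC hearts, against 510 and 460 in high-fat sham hearts, and 612, 732 and 597 in fat-free TAC hearts, against 406, 380 and 545 in fat-free sham hearts. No TAC library reached down to a sham library of its diet, and the average log2 fold change was 0.53 ± 0.12 (limma, adjusted p = 0.00793). Hdac10, the other class IIb HDAC, was lower on average (-0.29 ± 0.09, adjusted p = 0.0229). Camk2g was lower by a small amount (-0.17 ± 0.06, adjusted p = 0.0389), a direction that turned under library size scaling (0.11).

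The genes around the route were described from lists of kinases, regulators, partners and targets. For comparison with their counts, 26.2% of all genes were called higher and 25.9% lower on average. Of 14 kinases that act on class IIa HDACs or on those kinases, 4 were called higher and 3 lower on average, with a median log2 fold change of 0.13. Camkk2 and Camkk1, which activate the CaMKI and CaMKIV kinases, were higher (0.49 ± 0.09, adjusted p = 0.00209, and 1.12 ± 0.27, adjusted p = 0.00854), whereas Stk11, which encodes the kinase LKB1, was lower (-0.51 ± 0.06, adjusted p = 0.00042). Stk11 had 1744, 2059 and 1844 normalized counts in high-fat TAC hearts, against 2823 and 2668 in high-fat sham hearts, and 1914, 1898 and 2062 in fat-free TAC hearts, against 2612, 2754 and 2746 in fat-free sham hearts.

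Of 7 genes for calmodulin and for proteins that restrain or dephosphorylate CaMKII, 4 were higher and 1 lower, with a median of 0.35. Calm2, a calmodulin gene, was higher (0.36 ± 0.08, adjusted p = 0.00598), as was Ppm1e, a phosphatase of CaM kinases (1.17 ± 0.23, adjusted p = 0.00399). The genes of both CaMKII inhibitor proteins differed in direction. Camk2n1 was lower (-0.57 ± 0.17, adjusted p = 0.0223), with 528, 600 and 322 normalized counts in high-fat TAC hearts, against 576 and 659 in high-fat sham hearts, and 539, 331 and 480 in fat-free TAC hearts, against 762, 747 and 718 in fat-free sham hearts. Its groups were apart on the fat-free diet and overlapped on the high-fat diet. Camk2n2, at 63, 48 and 41 in high-fat TAC hearts against 25 and 25 in high-fat sham hearts, and 46, 36 and 29 in fat-free TAC hearts against 20, 28 and 26 in fat-free sham hearts, was higher on average (0.76 ± 0.20, adjusted p = 0.0116).

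Of 17 partners of the class IIa HDACs, 7 were higher and 5 lower, with a median of 0.16. The 14-3-3 genes Ywhah (0.45 ± 0.07, adjusted p = 0.00131), Ywhab (0.32, adjusted p = 0.00462) and Ywhaz (0.37, adjusted p = 0.0139) were higher, as was Ywhaq (0.33, adjusted p = 0.00909), but not all 14-3-3 genes moved that way. Ywhae was called lower (-0.26 ± 0.09, adjusted p = 0.0366), with 7569, 10168 and 9880 in high-fat TAC hearts, against 11223 and 11681 in high-fat sham hearts, and 8625, 9771 and 9163 in fat-free TAC hearts, against 10399, 10519 and 10339 in fat-free sham hearts. Ywhag was not called (-0.14, adjusted p = 0.249). The call of Ywhae was lost without high-fat sham replicate 3 (-0.24, adjusted p = 0.117), and library size scaling turned its direction (0.03). Ywhae, Ywhaq and Ywhag were named after their values were seen. Ncor1, which encodes a co-repressor, was lower (-0.26 ± 0.06, adjusted p = 0.00657) but not under library size scaling (0.02). Of 9 tested MEF2 co-activators and partners, 2 were higher and 2 lower, with a median of -0.01. Both named here encode kinases that phosphorylate MEF2: Mapk7, the gene of ERK5, was higher (0.71 ± 0.11, adjusted p = 0.00123), and Mapk14, the gene of p38alpha, was lower (-0.64 ± 0.09, adjusted p = 0.00072). Mapk14 had 1512, 2111 and 1747 normalized counts in high-fat TAC hearts, against 3074 and 3028 in high-fat sham hearts, and 1600, 1798 and 1589 in fat-free TAC hearts, against 2411, 2498 and 2180 in fat-free sham hearts.

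Genes known as MEF2 targets did not move one way. Of 16, 4 were higher and 4 lower on average, with a median of -0.07. Myh7, the slow myosin heavy chain (3.70 ± 0.36, adjusted p = 0.000139), Xirp2, an actin-binding protein of intercalated discs (1.56 ± 0.27, adjusted p = 0.00202), and Des, the intermediate filament desmin (0.89 ± 0.18, adjusted p = 0.00367), were higher, and Hrc, which binds calcium inside the sarcoplasmic reticulum, was lower (-1.22 ± 0.28, adjusted p = 0.00683). The last list held 10 genes, 9 for calcium, sodium or potassium channels, pumps, exchangers and their regulators and 1, Phb2, for the protein prohibitin 2. Of them 1 was higher and 6 were lower, with a median of -0.36. Atp2a2, the calcium pump of the sarcoplasmic reticulum (-0.80, adjusted p = 0.024), and its inhibitor Pln (-0.97 ± 0.26, adjusted p = 0.0149) were among those lower, and Slc8a1, the sodium-calcium exchanger, was higher (0.53, adjusted p = 0.00367). Scaling by library size changed these counts on average to 8 higher and 1 lower kinases, 6 and 0 CaMKII regulators, 12 and 0 HDAC partners, 6 and 1 MEF2 partners, 5 and 3 targets and 2 and 3 genes of the last list. On the high-fat diet these lists held 3 higher and 2 lower of 13 kinases, 3 and 0 of 7 CaMKII regulators, 5 and 4 of 17 HDAC partners, 1 and 1 of 9 MEF2 partners, 2 and 2 of 16 targets and 1 and 3 of the 10 genes of the last list. On the fat-free diet they held 3 and 1, 2 and 1, 1 and 1, 1 and 1, 5 and 4, and 1 and 2. Over all genes, 16.9% were called higher and 14.8% lower on the high-fat diet, and 14.2% and 10.0% on the fat-free diet. Library size scaling called 7393 of 14687 genes higher and 1283 lower on average.

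**Figure D4:**
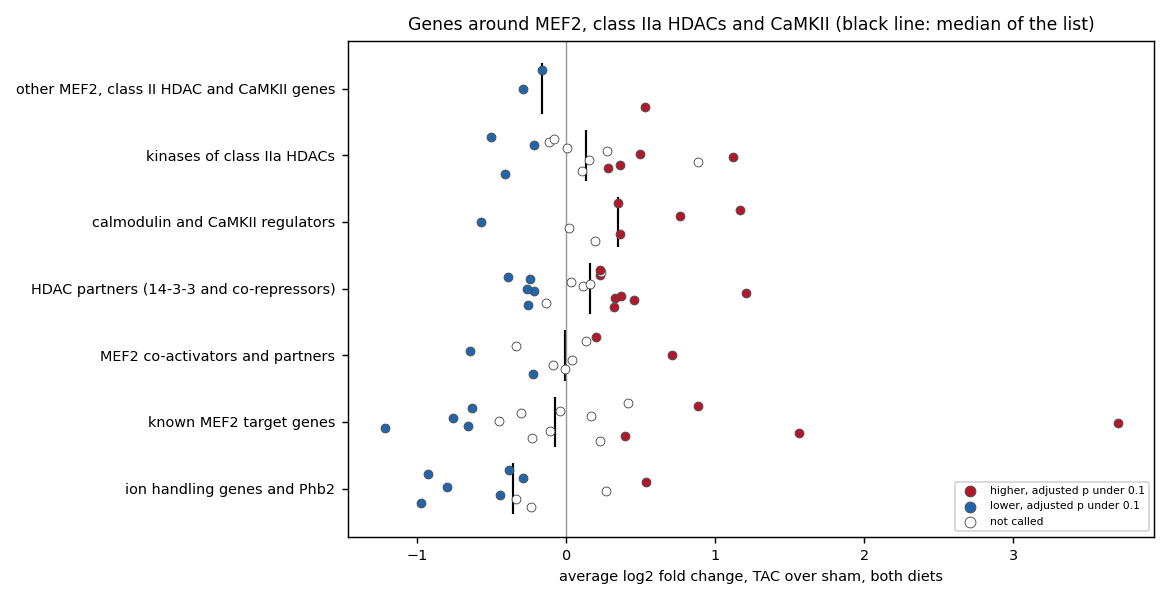
Average log2 fold change of TAC over sham over both diets (horizontal axis) for each gene of 7 lists around the 10 genes, with the median of each list as a black line. Red points were called higher, blue points lower and white points not called; the median is 0.35 for calmodulin and CaMKII regulators and -0.36 for the list of ion handling genes and Phb2.

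Of 5 neuronal markers 4 could be tested, and Tubb3 and Gap43 were called higher on average, while Snap25 (adjusted p = 0.264) and Syt1 (adjusted p = 0.17) were not called and both were at 0 in high-fat TAC replicates 2 and 3 and in the high-fat sham libraries. The summed level of all 5 ran from 152 to 845 in high-fat TAC and from 31 to 62 in high-fat sham hearts, and from 132 to 378 in fat-free TAC and from 38 to 141 in fat-free sham hearts, most of it from Tubb3. Of 8 cardiomyocyte markers, 1 was called higher and 3 lower on average, with a median of -0.35. Of 8 fibroblast markers 5 were called higher, and their summed level ran from 103810 to 364915 in high-fat TAC and from 28258 to 34012 in high-fat sham hearts, and from 56564 to 196774 in fat-free TAC and from 23092 to 41131 in fat-free sham hearts. All 7 macrophage markers were called higher. All 5 adipocyte markers were called lower on the fat-free diet, with a median of -3.64 and a summed level from 11 to 311 in TAC and from 485 to 775 in sham hearts; none of the 5 could be tested on the high-fat diet, where the sum ran from 4 to 1669 in TAC and from 0 to 2 in sham hearts. No marker of these lists was at 0 in every library. The part of these cell types in the lower Camk2a, Camk2b, Hdac4 and Hdac5 values was not tested.

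Likeness across the 11 libraries was measured as Pearson's r of log2 values centred within each diet, which includes the TAC effect itself, over 11773 genes. The genes most like Camk2a were Gna12 (r = 0.992), Nadk2 (r = 0.991) and Slc25a42 (r = 0.991), and those most like Camk2b were Xrcc5 (r = 0.974), Zmym6 (r = 0.972) and Atl2 (r = 0.971). Hdac5 was followed most closely by Gltscr2 (r = 0.984), Calcoco1 (r = 0.982) and Rit1 (r = 0.98), Hdac4 by Adamtsl4 (r = 0.965), Mettl25 (r = 0.939) and Gm572 (r = 0.937), and Hdac7 by Plekhg5 (r = 0.963), Cnppd1 (r = 0.962) and Tet3 (r = 0.949). Among the 10 genes, Hdac5 and Camk2a had r = 0.912 on this scale, and 0.686 once the group means were removed. The pair most alike within groups was Mef2c and Camk2d (r = 0.889), followed by Hdac9 and Camk2a (r = 0.84) and Mef2a and Mef2d (r = 0.812). All libraries enter each r and share their scaling, so these values describe the libraries and carry no test.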

How the data were processed

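Stranded messenger RNA libraries of heart tissue were, by the authors, aligned to mm10 with STAR and counted with featureCounts of Subread, with DESeq2 also named, per the submitters' processing notes; versions are not given in the sources used here. The deposited score columns hold counts normalized within each diet and rounded to whole numbers, so raw counts could not be recovered and the test planned for normalized values was used. The log2 fold changes and adjusted p-values deposited by the authors were copied for comparison.

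Genes with a value of at least 10 in at least 3 libraries (fat-free) or 2 (high-fat and joint fits) were fitted with limma 3.58.1 in R 4.3.3 on log2(value + 1) with a mean-variance trend, two-sided. Adjusted p-values are Benjamini-Hochberg over all genes tested, and intervals are 95%. The pathway genes named are up to 3 per list and comparison with the smallest adjusted p among those called. Genes of like pattern needed a mean of at least 50 in both tables. Alternatives were a pseudocount of 8, no filter, library size and trimmed-mean scaling, a replicate block, Myl7 as a covariate, all libraries in one fit, each library left out, and the deposited fold changes; leaving out the libraries above 1000 Myl7 counts was added after seeing the data. The 10 genes, lists and tests were chosen with earlier results of these data known. Library preparation was stranded, and the counting setting for strand is not given in the sources used here; Hdac7 shares 0.585% of its exon bases with Slc48a1 on the other strand. No pair of libraries was a duplicate. Promoter sequences are RefSeq's on GRCm38.p6; motifs were searched on both strands. The fits were also run on simulated counts with the same spread for every gene. That simulation did not copy the differences between libraries seen here, and no conclusion is drawn from it. Figures were drawn with matplotlib 3.10.9.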

Additional observations from a re-analysis of the deposited data

How the results depend on the processing

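Camk2a and Camk2b kept their calls for the average effect under all 18 alternatives, with log2 fold changes from -0.88 to -0.49 and from -0.75 to -0.41. Scaling by library size moved the medians of all genes as given above, and the share of calls that were higher was 91.8% (6323 higher, 563 lower) on the high-fat diet, 79.8% (2766 higher, 701 lower) on the fat-free diet and 85.2% (7393 higher, 1283 lower) on average, against 53.3%, 58.6% and 50.3% on the scale used. Under it 6886 genes were called on the high-fat diet (4519 on the scale used), 1 of the 10 genes was lower and 5 higher there, 1 was higher on the fat-free diet, and 2 were lower and 5 higher on average. Directions then turned on the high-fat diet for Mef2a (0.336), Mef2d (0.094), Camk2d (0.301), Hdac10 (0.148), Camk2g (0.212), Camk2n1 (0.0196), Ncor1 (0.104), Ywhae (0.0915) and Ywhag (0.199), on the fat-free diet for Mef2a (0.0523), Mef2d (0.121), Hdac4 (0.0211), Hdac9 (0.105), Camk2g (0.0162) and Ywhag (0.0847), on average for Mef2a (0.194), Mef2d (0.108), Hdac9 (0.264), Camk2d (0.243), Camk2g (0.114), Ncor1 (0.0156), Ywhae (0.0253) and Ywhag (0.142), and for the diet difference for Hdac5 (0.0652), Hdac7 (0.108) and Camk2b (0.197). With Myl7 as a covariate 1 of the 10 genes, Hdac7, was higher on the fat-free diet (0.48, limma adjusted p = 0.0618), and directions turned there for Mef2a (0.046), Mef2c (-0.0857), Mef2d (0.0545), Hdac4 (0.0109), Hdac9 (0.082) and Camk2d (-0.0472), on the high-fat diet for Mef2a (0.0583) and in the difference for Camk2b (0.027). Without the 3 fat-free libraries above 1000 Myl7 counts, sham replicate 2 was the only fat-free sham library and was assumed to vary like the TAC libraries, so the lack of calls says nothing about stability; limma called 0 genes, 0 of the 10 lower, with 2052 at an unadjusted p under 0.05, and directions turned for Mef2a (0.0742), Mef2c (-0.0364), Mef2d (0.231), Hdac4 (0.271), Camk2d (-0.0093) and Prkd3 (-0.00379). Without the 4 such libraries over both diets, again with 1 fat-free sham library, 2 of the 10 were lower on average, and Mef2a (0.0579), Mef2d (0.00455) and Hdac9 (0.0846) turned. No filter gave 2814 calls on the high-fat diet; trimmed-mean scaling turned Hdac9 there (-0.00199), and the deposited value turned Mef2a there (0.13). Leaving out single libraries gave 0 to 5966 calls on the high-fat diet, with 0 to 5 of the 10 lower; the low counts were 154 without TAC replicate 3, 128 without sham replicate 3 and 0 without sham replicate 2, where 2047 genes had an unadjusted p under 0.05 by limma and the lone sham library was assumed to vary like the TAC libraries. It gave 1369 to 3821 calls on the fat-free diet (1930 without TAC replicate 1, 1369 without TAC replicate 2 and 1850 without sham replicate 1), 0 to 1 of the 10 higher on average, and 0 to 1 genes for the diet difference, the 1 without high-fat TAC replicate 1. Hdac5 was called on the fat-free diet without TAC replicate 3 (-0.48, adjusted p = 0.0504) or sham replicate 2 (-0.46, adjusted p = 0.0932). Leave-one-out log2 fold changes crossed 0 on the fat-free diet for Mef2d (-0.13 to 0.0908), Mef2c (-0.0573 to 0.117), Hdac9 (-0.106 to 0.0778), Camk2d (-0.0348 to 0.102), Hdac4 (-0.283 to 0.0352) and Ywhag (-0.132 to 0.00206), on the high-fat diet for Mef2a (-0.158 to 0.0417) and Hdac9 (-0.178 to 0.201), on average for Hdac9 (-0.108 to 0.082) and in the difference for Camk2b (-0.194 to 0.035). Whether the replicate numbers pair the libraries is not given in the labels. Deviations of same-numbered TAC and sham libraries correlated at 0.368, 0.089 and -0.143 on the fat-free diet. On the high-fat diet they correlated at 0.257 and -0.116, and so few libraries cannot settle the pairing. With the replicate block 6102 genes were called on the high-fat diet. There it turned Mef2a (0.0417), the same log2 fold change as without TAC replicate 1, a fit that called 2762 genes higher and 2834 lower. The analysed high-fat sham libraries are replicates 2 and 3. The block on that diet therefore leaves TAC replicate 1 out of the comparison and gives the same log2 fold changes. The block called 3322 genes on the fat-free diet, 7157 on average, where Hdac9 turned (0.082), and 0 for the difference. The blocked fit called Hdac5 on the fat-free diet (-0.37, limma adjusted p = 0.0405). The cause of the other shifts was not tested. High-fat sham held 2 libraries, and Mef2b was the only family gene too low to test.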
